A study of Mus musculus with 27 samples.

Results

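The genes described are 10 members of the NF-kB system: the 5 subunit genes Nfkb1, Nfkb2, Rela, Relb and Rel, and the 5 genes of inhibitors or modulators Nfkbia, Nfkbib, Nfkbie, Nfkbiz and Tnfaip3. They were taken by symbol, and all 10 were found in each of 3 count tables, which hold 46078, 22906 and 46078 gene rows. NF-kB is a family of dimeric transcription factors. In resting cells the dimers are held in the cytoplasm by IkB proteins, and signals from antigen receptors, TNF-family receptors or Toll-like receptors activate the IKK kinase, which marks IkB for destruction and lets the dimers enter the nucleus. Several IkB genes are themselves NF-kB targets and close a feedback loop. In the thymus the pathway is known for its part in the selection, survival and maturation of thymocytes.

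The libraries are bulk messenger RNA sequencing of 27 mouse samples in 9 groups of 3. Thymus came from C57BL/6 mice after bone marrow transplantation, in groups labelled empty vector, TAL1 (overexpression of a basic helix-loop-helix factor of T cell leukaemia), AKT(E17K) (the kinase AKT1 with an activating substitution), and both AKT(E17K) and TAL1. A cell line, ProT, was taken at 0, 6, 12, 18 and 24 h of 4-hydroxytamoxifen, the agent that activates a CreER recombinase and, by the labels, switches on TAL1 through LoxP sites. The labels do not give the promoter, the vector or the share of donor cells, nor whether the ProT libraries of a time are separate cultures, so p-values in ProT cells measure only how far these libraries scatter, and that scatter may be technical. Totals ran from 3893990 to 11302098 counts per library in the table of empty-vector and TAL1 mice, from 2073752 to 3661056 in the table of AKT(E17K) mice and from 2660641 to 6599146 in ProT cells.

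The gene Tal1 checked the labels poorly. It had 0 counts in all mice labelled empty vector, TAL1 and AKT(E17K) with TAL1, and 0 to 7 counts in mice labelled AKT(E17K). In ProT cells it stood, in depth-scaled counts (CPM, scaled to the library's total and TMM factor), at 2890 to 3100 CPM at 0 h, 3030 to 3610 CPM at 6 h and 1960 to 2070 CPM at 24 h, so the 6 h libraries overlapped those of 0 h and the 24 h libraries were lower. Directions given here for TAL1 therefore rest on the labels alone. T lineage markers were detected in thymus for 12 of 12 genes in every mouse. ProT cells had counts for 8 to 11 of these 12 genes per library, and at 0 h they had 0 counts of Cd4 and Cd8a, which mark later thymocytes, and 7.09 to 8.57 CPM of Rag1, the recombinase of antigen receptor genes.

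In GENCODE M21 on GRCm38, whole genes with exons and introns, Nfkb1 lies at chr3:135584655-135691547, Relb at chr7:19606217-19629438, Rel at chr11:23736847-23770970, Nfkbia at chr12:55489410-55492647, Nfkbib at chr7:28758251-28767512, Nfkbiz at chr16:55811375-55838899 and Tnfaip3 at chr10:19000910-19015657, all on the minus strand. Nfkb2 lies at chr19:46304320-46312385, Rela at chr19:5637483-5648130 and Nfkbie at chr17:45555703-45563169, all on the plus strand. Nfkb2 and Rela are on the same chromosome, as are Relb and Nfkbib. Counts cover exons, and the merged exon length ran from 1610 bases for Nfkbia to 12061 bases for Nfkb1.

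Promoter sequences are shown for Rel, Nfkbia and Nfkbie, because each of these genes changed in a comparison described below and has an entry in the RefSeq promoter table of build GRCm38.p6. The table matched 7 of the 10 members, not Nfkb1, Relb and Nfkbiz. Each entry runs from 250 bases before to 50 bases after an annotated start and is printed 5′ to 3′ on the strand of the gene. Rel lies on the minus strand at chr11:23770920-23771219, Nfkbia on the minus strand at chr12:55492598-55492897 and Nfkbie on the plus strand at chr17:45555450-45555749. Capitals mark matches, on either strand, to 2 short forms of the NF-kB binding motif, GGNNNTTCC and GGGNNTTNC, which can overlap each other.
Rel: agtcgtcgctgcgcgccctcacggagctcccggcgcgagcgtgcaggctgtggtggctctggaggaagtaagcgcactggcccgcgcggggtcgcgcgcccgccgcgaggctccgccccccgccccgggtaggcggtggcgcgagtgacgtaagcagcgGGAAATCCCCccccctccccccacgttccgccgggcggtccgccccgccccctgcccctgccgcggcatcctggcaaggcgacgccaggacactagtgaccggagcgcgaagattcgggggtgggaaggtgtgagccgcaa
Nfkbia: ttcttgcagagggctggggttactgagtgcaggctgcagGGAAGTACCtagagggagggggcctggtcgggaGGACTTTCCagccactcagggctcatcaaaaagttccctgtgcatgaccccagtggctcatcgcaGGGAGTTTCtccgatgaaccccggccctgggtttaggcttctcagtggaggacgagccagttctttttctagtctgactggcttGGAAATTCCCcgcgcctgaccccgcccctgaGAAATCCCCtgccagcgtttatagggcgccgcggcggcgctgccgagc
Nfkbie: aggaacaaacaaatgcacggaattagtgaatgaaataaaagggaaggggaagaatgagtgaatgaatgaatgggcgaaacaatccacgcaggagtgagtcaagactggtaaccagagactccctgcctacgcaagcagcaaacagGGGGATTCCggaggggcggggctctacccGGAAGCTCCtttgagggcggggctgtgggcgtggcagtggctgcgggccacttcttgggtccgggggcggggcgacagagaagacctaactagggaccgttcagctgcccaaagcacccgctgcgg

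The Nfkbia promoter held matches starting at 6 positions, of which the earliest began at -211 and the last at 2 relative to the start. The promoter of Rel held a single stretch with overlapping matches at -91 and -90. That of Nfkbie held a match to both motifs at -105 and another at -76. The 7 members with an entry had 10 entries in all, and 6 had at least 1 match in any of their entries, Nfkbib being the exception. Among all 32851 promoters of the table, counted per entry and not per gene, 18.5% held the first motif, 15.2% the second and 25.7% either. These matches describe letters in a window, and binding was not measured.

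Compared per kilobase of exon, Nfkbia, which encodes the feedback inhibitor IkB alpha, had the highest mean level of the 10 genes in all 9 groups. It averaged 526 CPM per kilobase in empty-vector thymus, 448 in TAL1 thymus, 141 in AKT(E17K) thymus, 161 in AKT(E17K) with TAL1 thymus and 35.2 to 47.5 in ProT cells. Relb, the partner of p52 in the non-canonical pathway, had the lowest mean in all 9 groups, from 0.151 to 3.24 CPM per kilobase. In empty-vector thymus the order below Nfkbia was Rela at 23.1, Nfkbib at 18.1, Nfkbiz at 10.8, Nfkb1 at 8.79, Nfkbie at 7.2, Rel at 6.17, Tnfaip3 at 5.64, Nfkb2 at 3.68 and Relb at 3.24 CPM per kilobase. In that order the libraries of neighbours overlapped from Nfkbiz through to Tnfaip3, and those of Nfkb2 overlapped those of Relb. Exon bases shared with a gene on the opposite strand made up 18.1% of Nfkb2 (with Psd and AC114539.1) and 16.4% of Nfkbib (with Sirt2 and Ccer2), and the levels of these 2 members are uncertain because the strand setting of the counting was not given in the sources used here. The other members shared none.

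The first comparison asks what the TAL1 label does in thymus without AKT(E17K). The members Relb, Rel and Nfkbiz were lower in TAL1 thymus, at 0.399, 0.563 and 0.59 of the empty-vector level, and none was higher. In the edgeR quasi-likelihood test 3 of 10 members passed an adjusted p of 0.05, all lower, where 5.04% of the 12357 genes tested passed in either direction. The median log2 fold change was -0.19 over the members and 0 over all genes tested. Because the members were chosen with earlier results of these data known, these shares and medians are descriptions. All 10 members passed the filter on low counts. In bulk tissue, fewer cells of a type and less RNA per cell cannot be told apart.

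Among subunits, Relb stood at 13, 14.9 and 9.89 CPM in the empty-vector mice and at 5.15, 4.26 and 5.57 CPM in the TAL1 mice. All 3 TAL1 mice were below all 3 empty-vector mice. How many of all genes tested showed no overlap was not counted, in this or any other comparison. The log2 fold change of Relb was -1.32 ± 0.320 (SE, n = 3 per group), with an adjusted p of 0.0306 in edgeR. Rel encodes c-Rel, the subunit best known in activated lymphocytes and regulatory T cells. Rel stood at 42.6, 54.5 and 41 CPM in the empty-vector mice and at 29.9, 28.7 and 19.3 CPM in the TAL1 mice, again without overlap. The log2 fold change of Rel was -0.83 ± 0.207 (edgeR adjusted p = 0.0359).

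Nfkb1, which encodes the p105 precursor of p50, stood at 82.2, 125 and 111 CPM in the empty-vector mice and at 64.8, 86.9 and 97.9 CPM in the TAL1 mice. The groups overlapped, and the log2 fold change of -0.34 ± 0.176 had an edgeR adjusted p of 0.349. Rela, which encodes the main activating subunit p65, stood at 66, 76.4 and 70.5 CPM against 75.2, 71.5 and 73.3 CPM in the TAL1 mice, a log2 fold change of 0.05 ± 0.12. Its approximate 95% interval ran from -0.19 to 0.28. Nfkb2, which encodes the p100 precursor of p52, stood at 14.8, 19 and 16.8 CPM against 22.2, 12.8 and 16.6 CPM, with a log2 fold change of 0.03 ± 0.254. The TAL1 mice of Nfkb2 thus held both the highest and the lowest value.

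Among inhibitors and modulators, Nfkbiz encodes IkB zeta, a nuclear IkB protein that acts with NF-kB on chromatin. Nfkbiz stood at 65.2, 45.3 and 51.5 CPM in the empty-vector mice and at 38, 28.2 and 29.8 CPM in the TAL1 mice. Every TAL1 mouse was below every empty-vector mouse, and the log2 fold change was -0.76 ± 0.185 (edgeR adjusted p = 0.0315). Nfkbia stood at 987, 734 and 820 CPM in the empty-vector mice and at 762, 692 and 711 CPM in the TAL1 mice. The groups overlapped in Nfkbia through 1 TAL1 mouse, and its log2 fold change of -0.23 ± 0.104 had an adjusted p of 0.268 in edgeR.

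Tnfaip3 encodes A20, a ubiquitin-editing enzyme that ends NF-kB signalling. Tnfaip3 stood at 46.1, 32.2 and 44 CPM in the empty-vector mice and at 40.3, 38.8 and 31.5 CPM in the TAL1 mice, overlapping, with a log2 fold change of -0.15 ± 0.185. Nfkbib, which encodes IkB beta, stood at 37.4, 43 and 37.2 CPM against 41.2, 43.2 and 41.1 CPM, a log2 fold change of 0.09 ± 0.153. Nfkbie, which encodes IkB epsilon, stood at 21.1, 20.8 and 23.8 CPM against 23.9, 23.6 and 24.4 CPM, a log2 fold change of 0.13 ± 0.19. The approximate 95% intervals were -0.52 to 0.21 for Tnfaip3, -0.21 to 0.39 for Nfkbib and -0.24 to 0.5 for Nfkbie, and none of the 3 passed.

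**Figure D1:**
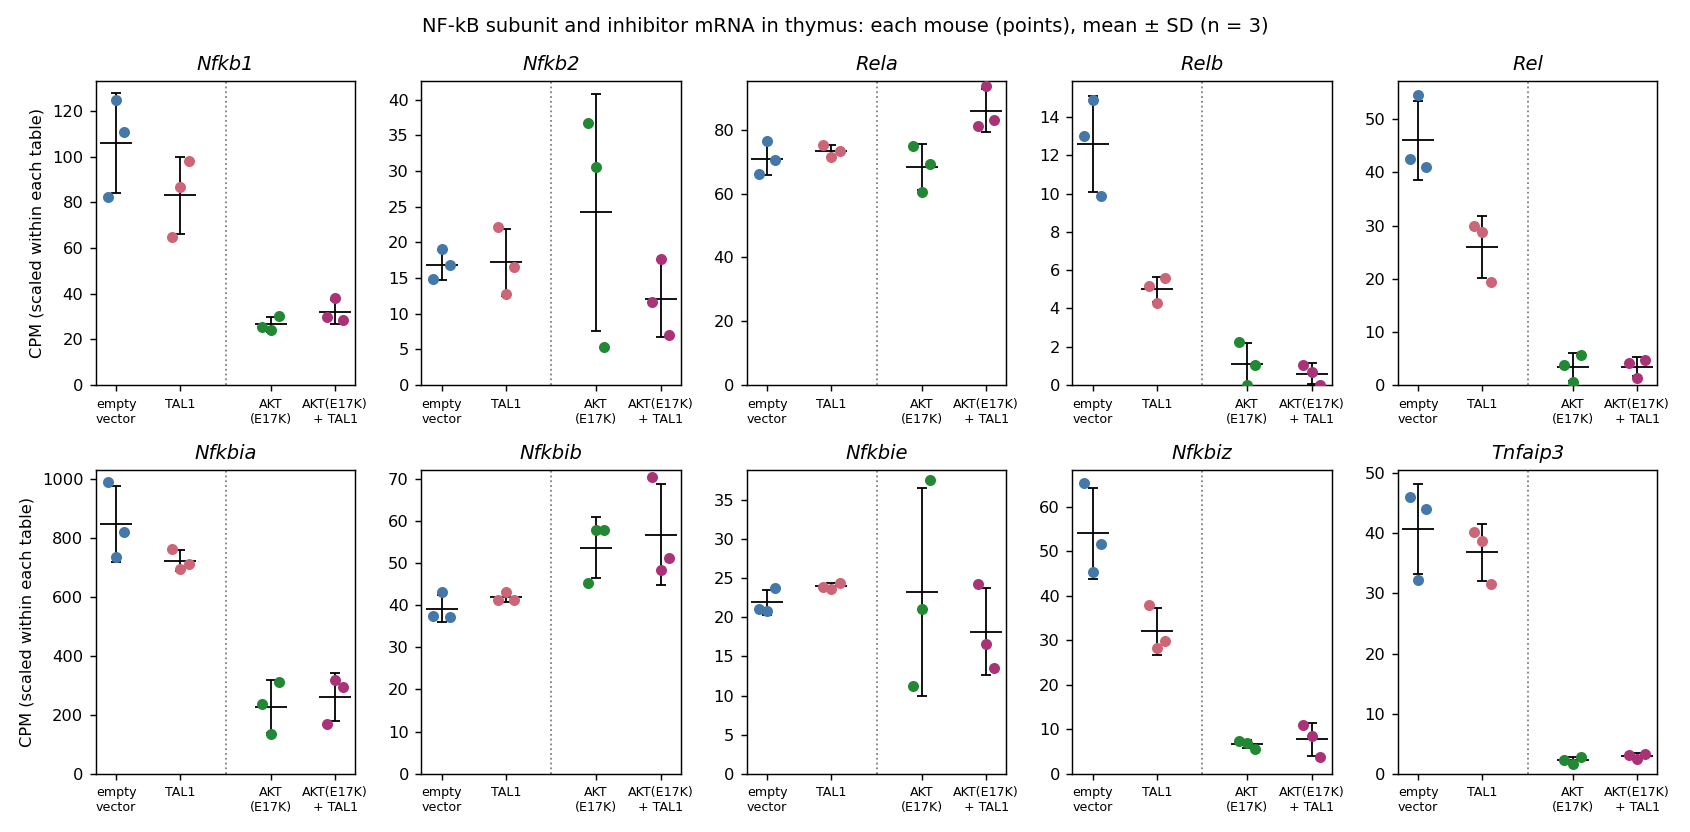
Level of each of the 10 genes in every thymus library, in CPM on a linear axis from 0, with points for mice and bars for the mean ± SD of 3 mice; the dotted line separates the 2 count tables, which were scaled separately. The TAL1 points of Relb (4.26 to 5.57 CPM), Rel (19.3 to 29.9 CPM) and Nfkbiz (28.2 to 38 CPM) lie below all empty-vector points.

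The 3 calls were not stable when 1 mouse was left out. Leaving out 1 mouse at a time left 0 to 1 members called, although the log2 fold changes stayed between -1.47 and -1.19 for Relb, between -0.95 and -0.66 for Rel and between -0.90 and -0.60 for Nfkbiz. Without any 1 of the 6 mice the call of Relb was lost, with adjusted p from 0.0512 to 0.143. Rel was not called without empty-vector mouse M312 (0.18) or M315 (0.0774), nor without TAL1 mouse M317 (0.0554), M318 (0.0682) or M319 (0.101). Nfkbiz was not called without empty-vector mouse M311 (0.114), M312 (0.0504) or M315 (0.0928), nor without TAL1 mouse M318 (0.119) or M319 (0.0929).

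Markers of mature T cells moved with these calls. Their summed level was 1000 to 1130 CPM in the empty-vector mice and 256 to 437 CPM in the TAL1 mice, and 7 of 8 were called lower. The summed T lineage markers were 10400 to 12800 and 13400 to 15000 CPM. Dendritic cell markers overlapped between groups (48.4 to 163 and 48.9 to 120 CPM), as did B cell markers (6.69 to 15.1 and 6.74 to 12 CPM). NK markers were 73.9 to 171 and 111 to 133 CPM, with 1 of 3 tested, Eomes, called lower. Gzma, the largest part of that sum by mean level, went the other way, at 44.2 to 106 and 99 to 128 CPM, and was not called. Nkg7 stood at 18.7 to 38.3 and 3.57 to 17.2 CPM. Endothelial markers were 144 to 190 CPM in the empty-vector mice and 104 to 110 CPM in the TAL1 mice, without overlap. That sum was almost all Pecam1, the 1 tested, at 144 to 188 and 104 to 110 CPM and called lower. Pecam1 also stood at 76.3 to 87 CPM in ProT cells at 0 h. Cdh5, Kdr and Tek had at most 2, 5 and 10 counts in these mice, so the sum says little about endothelial cells. Myeloid markers were 22.8 to 33.7 CPM in the empty-vector mice and 13.6 to 378 CPM in the TAL1 mice. The 378 CPM came from TAL1 mouse M318 alone, and M317 and M319 stood at 13.6 and 16.5 CPM, below every empty-vector mouse. Thymic epithelium markers were 8.42 to 32.9 and 11.1 to 15.6 CPM, with Foxn1 and Aire at 0 counts in all 6 mice. The part of these cell types in the lower levels of Relb, Rel and Nfkbiz was not tested. Depth and counting also separated the groups. Totals were 3893990 to 5915285 counts in the empty-vector mice and 7155918 to 11302098 in the TAL1 mice, and reads in no annotated feature made up 33% of each empty-vector library and 29.8% to 30.3% of the TAL1 libraries. Their part in the 3 calls was not tested.

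Other genes of the pathway were followed in lists of 91 genes. Of the 71 tested in TAL1 against empty-vector thymus, 11 were lower and 0 higher, which is 15.5% where 5.04% of all genes were called (267 higher and 356 lower). The median log2 fold change of the 71 was -0.29 against 0 for all genes. The lists were chosen with earlier results of these data known, so these differences from all genes are descriptions and not a test. Both IkB-like genes outside the 10 members were lower: Bcl3, a nuclear partner of p50 and p52, by a log2 fold change of -2.81 ± 0.584, and Nfkbid, which encodes IkB NS, by -0.78 ± 0.192. Bcl3 averaged 8.79 ± 2.06 CPM (SD, n = 3) with the empty vector against 1.2 ± 0.803 CPM with TAL1. For Nfkbid the means were 35.4 ± 5.12 CPM and 20.5 ± 1.86 CPM.

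Among genes of signalling to IKK, 1 of 20 was lower, Traf5 (an adaptor of TNF-family receptors, -1.44 ± 0.334). Of 6 TNF-family ligands tested, Tnfsf8 (the CD30 ligand, -2.43 ± 0.396) and Cd40lg (the CD40 ligand of helper T cells, -2.14 ± 0.389) were lower. Of 12 receptors tested, Tnfrsf4 (OX40, -1.58 ± 0.386) and Tnfrsf18 (GITR, -0.81 ± 0.178), both known on activated and regulatory T cells, were lower. These values are log2 fold changes with their SE.

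Of 14 negative regulators tested, Nlrc3 was lower (-0.65 ± 0.156). Of 17 genes known as NF-kB targets, Ccr7 (a chemokine receptor of mature thymocytes, -2.46 ± 0.371), Birc3 (an inhibitor of apoptosis, -0.64 ± 0.169) and Bcl2a1b (a survival gene, -3.70 ± 0.901) were lower. Bcl2a1b has near-identical paralogs that share reads, so its value is uncertain. Ccr7 is also in the list of mature T cell markers. Ccr7 averaged 78.5 ± 11 CPM (SD, n = 3) with the empty vector against 13.8 ± 10.4 CPM with TAL1.

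**Figure D2:**
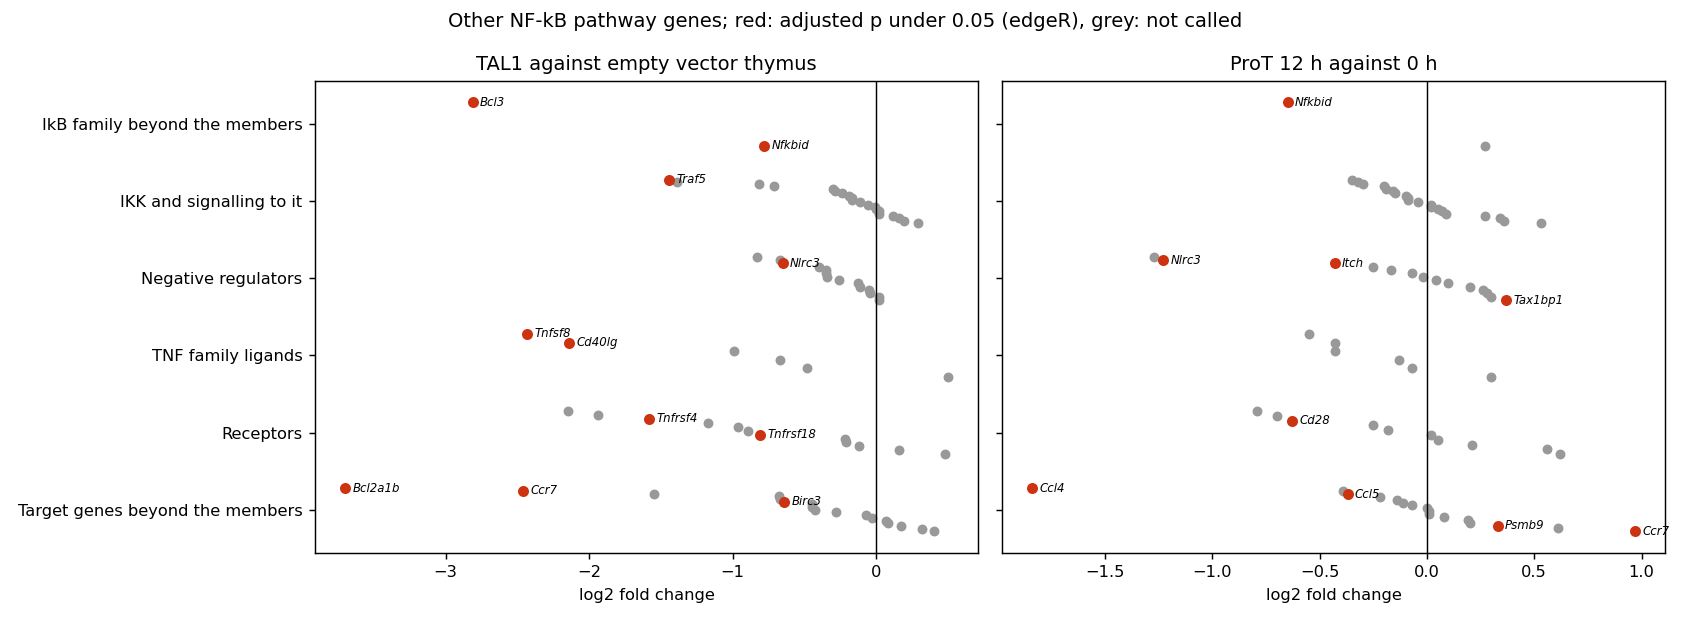
Log2 fold change of the other pathway genes, 1 point per gene tested, by list, for TAL1 against empty-vector thymus (left) and for ProT cells at 12 h against 0 h (right); red points passed an adjusted p of 0.05 in edgeR, and the horizontal scales differ. All 11 red points on the left are below 0, and on the right 3 are above and 6 below.

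The second comparison asks the same of TAL1 on top of AKT(E17K). No member was called: 8 of 10 passed the filter, 0 passed the edgeR test, 0 had an unadjusted p under 0.05, and DESeq2 called 0. Across all 9782 genes tested 0% were called by edgeR, 709 had an unadjusted p under 0.05 and DESeq2 called 76. Relb and Tnfaip3 did not pass the filter.

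Several members were low or varied between mice in AKT(E17K) thymus. Rel stood at 3.84, 0.527 and 5.66 CPM without TAL1 and at 4.22, 1.41 and 4.66 CPM with it. The groups overlapped, and the log2 fold change of -0.04 ± 0.819 had an approximate 95% interval of -1.65 to 1.56. That interval holds the value of -0.83 seen without AKT(E17K), so a change of that size could not be told from none with these mice. Nfkbiz stood at 7.37, 6.85 and 5.66 CPM without TAL1 and at 10.9, 8.47 and 3.73 CPM with it, a log2 fold change of 0.23 ± 0.534.

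Relb had 2.24, 0 and 1.03 CPM without TAL1 and 1.06, 0.706 and 0 CPM with it. The libraries at 0 allow up to 1.45 and 1.35 CPM, the level of 3 counts, a limit that covers counting error only. Tnfaip3 stood at 2.24, 1.58 and 2.83 CPM without TAL1 and at 3.17, 2.47 and 3.26 CPM with it. Summed over the 3 mice of a group, Tnfaip3 had 21 and 23 counts and Relb 11 and 5.

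Nfkb2 varied between the AKT(E17K) mice, at 36.8, 30.5 and 5.4 CPM without TAL1 and 11.6, 17.7 and 6.99 CPM with it. Nfkbie also spread, at 11.2, 21.1 and 37.5 CPM and then 24.3, 16.6 and 13.5 CPM. The log2 fold changes were -0.98 ± 0.639 for Nfkb2 and -0.36 ± 0.46 for Nfkbie. Rela was the member whose groups did not overlap, at 74.9, 60.6 and 69.2 CPM without TAL1 and 81.3, 93.6 and 82.9 CPM with it. The share of all genes without overlap was not counted, and the log2 fold change of Rela, 0.33 ± 0.21, had an edgeR adjusted p of 0.747.

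Nfkb1 stood at 25.3, 24.2 and 30.1 CPM without TAL1 and at 29.6, 38.1 and 28.4 CPM with it, a log2 fold change of 0.27 ± 0.275. Nfkbia averaged 227 ± 89.7 CPM without TAL1 and 259.7 ± 80.2 CPM with it (SD, n = 3), from lowest values of 133 and 168 CPM, a log2 fold change of 0.19 ± 0.35. Nfkbib stood at 45.2, 57.9 and 57.9 CPM without TAL1 and at 70.4, 48.4 and 51.3 CPM with it, a log2 fold change of 0.08 ± 0.25. The groups overlapped in each of these 3 genes and none passed.

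**Figure D3:**
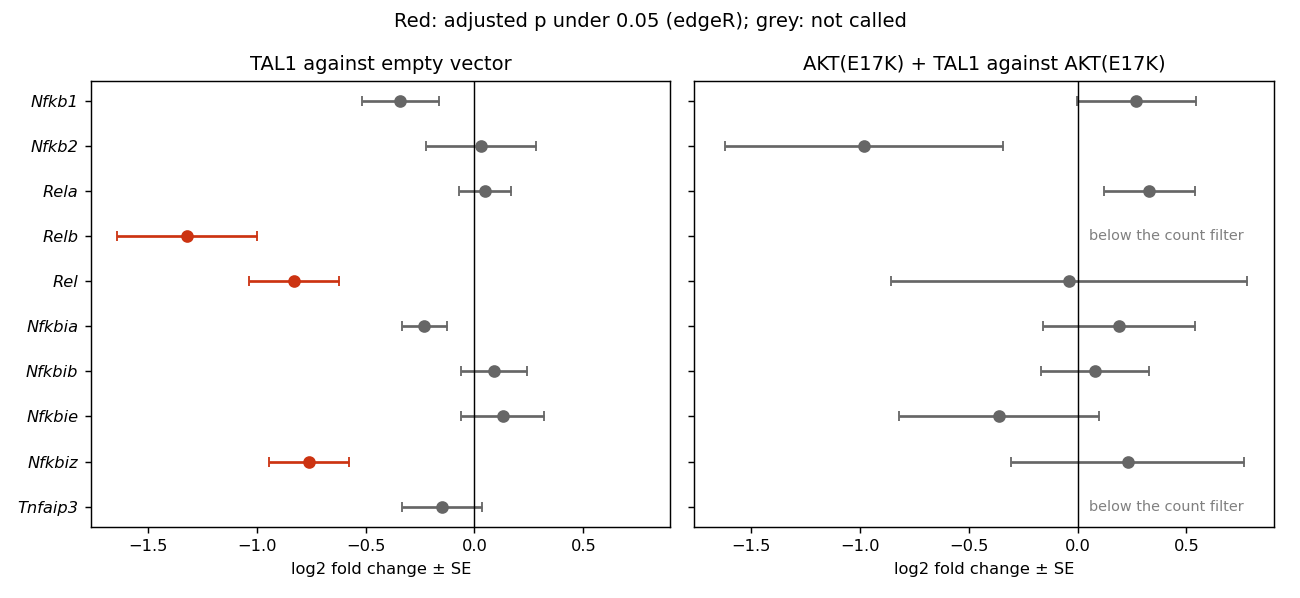
Log2 fold change ± SE of each member in both thymus comparisons; red marks an adjusted p under 0.05 in edgeR. Relb (-1.32), Rel (-0.83) and Nfkbiz (-0.76) are red on the left, nothing is red on the right, and the bars on the right are wider.

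Whether the effect of the TAL1 label differed with AKT(E17K) was tested over all 12 mice. Of the 10 members 0 were called, where 0.164% of 10947 genes were, DESeq2 called 0 members, and 1 member had an unadjusted p under 0.05. That member was Nfkbiz, with a difference of 1.03 ± 0.453 in log2 fold change (edgeR adjusted p = 0.433). The differences for Relb (0.45 ± 1.22) and Rel (0.73 ± 0.695) had intervals that included 0. Relb and Tnfaip3 were below the filter in the AKT(E17K) mice and entered this fit through their counts in the other mice. The test could not decide for Relb and Tnfaip3. For the other members a different effect of TAL1 with AKT(E17K) was not shown.

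Set side by side, the thymus groups with AKT(E17K) had low levels of Rel relative to Rela, and this could be read within each library without scaling between tables. The ratio of Rel to Rela in counts per kilobase was 0.24 to 0.294 in empty-vector mice, 0.109 to 0.165 in TAL1 mice, 0.00358 to 0.0337 in AKT(E17K) mice and 0.00621 to 0.0231 in AKT(E17K) with TAL1 mice. In ProT cells the ratio of Rel to Rela was 0.187 to 0.406 over all times. Every AKT(E17K) mouse was below every mouse without it.

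The ratio of Tnfaip3 to Rela was 0.179 to 0.297 in empty-vector mice, 0.183 to 0.231 in TAL1 mice, and 0.0111 to 0.0174 over both AKT(E17K) groups. The ratio of Nfkbiz to Rela was 0.363 to 0.604, then 0.241 to 0.31, and then 0.0275 to 0.0822 over both AKT(E17K) groups. The ratio of Nfkb1 to Rela was 0.317 to 0.416 in empty-vector mice, 0.219 to 0.34 in TAL1 mice and 0.086 to 0.111 over both AKT(E17K) groups. Nfkbia per Rela was 18.3 to 28.5, 18.5 to 19.3 and 3.94 to 8.6 in the same order. In ProT cells over all times the ratios to Rela were 2.47 to 3.86 for Nfkbia and 0.0157 to 0.0825 for Tnfaip3. They were 0.0929 to 0.262 for Nfkbiz and 0.295 to 0.781 for Nfkb1. Nfkbia per Rela was thus lower in ProT cells than in every AKT(E17K) mouse, and Tnfaip3 per Rela overlapped those mice. Low ratios of these 2 genes were not particular to the AKT(E17K) groups. Ratios were not computed for Nfkb2, Nfkbib and Nfkbie, so a fall across the whole family was not shown. Mean levels per kilobase were 18.1 CPM for Nfkbib, 3.68 for Nfkb2, 7.2 for Nfkbie and 23.1 for Rela in empty-vector mice. In AKT(E17K) mice they were 24.7, 5.29, 7.64 and 22.2. Among mice with the TAL1 label, they were 19.3, 3.75, 7.87 and 23.9 without AKT(E17K) and 26.1, 2.64, 5.95 and 28 with it. These contrasts lie between experiments whose tables have different gene sets, so they were not tested, and the experiment cannot be told apart from AKT(E17K). Marker lists separated these experiments too. Mature T cell markers were lower with AKT(E17K), at 23.7 to 48.6 CPM without TAL1 and 52.7 to 96.4 CPM with it, and T lineage markers stood at 5450 to 8070 CPM over both AKT(E17K) groups against 10400 to 15000 CPM in the other thymus groups. Erythroid markers were higher, at 85.3 to 937 CPM against 0 to 21.6 CPM. Summed stromal markers were 11.1 to 384 CPM against 1.54 to 4.99 CPM. The 384 CPM came from AKT(E17K) mouse m121 alone, and the other mice with AKT(E17K) stood at 11.1 to 28.2 CPM. Pdgfrb gave 10.2 to 11.6 CPM of the sum in AKT(E17K) mice, and it also stood at 33.4 to 36.8 CPM in ProT cells at 0 h. Outside m121 the sum therefore says little about stromal cells. The part of these cell types in the ratios to Rela was not tested.

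**Figure D4:**
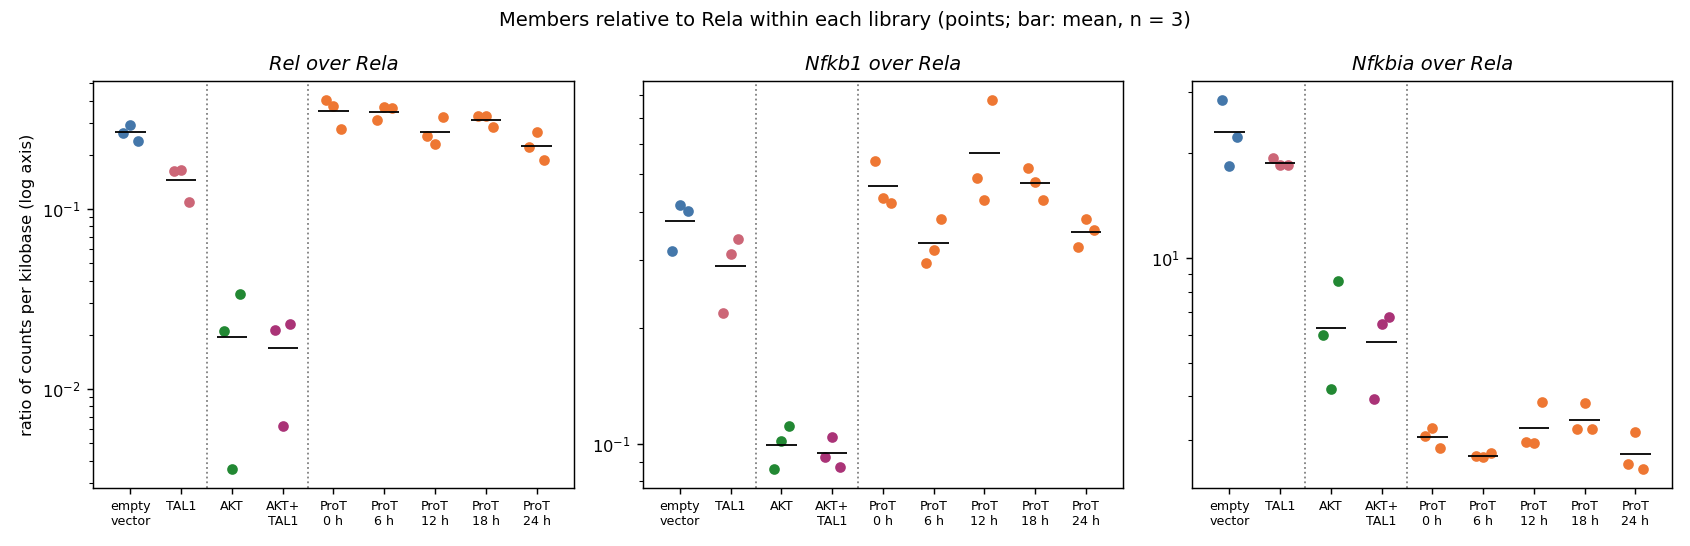
Ratio of Rel, Nfkb1 and Nfkbia to Rela within each library, from counts per kilobase, on log axes, with a point per library and a bar for the mean of 3; dotted lines separate the 3 count tables. In all 3 panels the AKT(E17K) groups lie below the other thymus groups, as with Rel at 0.00358 to 0.0337 against 0.109 to 0.294.

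The third question is how the members moved over 24 h of treatment in ProT cells. Nfkb1 and Rel changed over time and in opposite directions between 6 h and 12 h. Nfkbia was called higher at 18 h and Nfkbie at 24 h than at 0 h. Neither Nfkbia nor Nfkbie passed the edgeR test over all 5 times (adjusted p = 0.0565 and 0.195). In the edgeR test over all 5 times, 2 of 10 members were called, where 18% of 13610 genes were: Nfkb1 with an adjusted p of 0.0037 and Rel with 0.0114. Rel was not called there with scaling by library size only (0.0635). Calls over all times were thus about as frequent among the members as among all genes. All 10 members passed the filter. The comparisons with 0 h share the same 3 untreated libraries, and those at 12 h share the same 12 h libraries. Reads in no annotated feature made up 21.1% to 22.2% of the untreated libraries and 19.9% to 22.6% of those from 6 h. The 12 h libraries had 18.8% to 19.4%, those from 18 h 17.3% to 19.7% and those from 24 h 17.8% to 18.4%, so every library from 12 h on lay below every earlier one. The part of this share in the ProT results was not tested.

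Nfkb1 stood at 68.6, 57.8 and 67.2 CPM at 0 h, 53.3, 53.3 and 58.5 CPM at 6 h, 81.4, 66.7 and 107 CPM at 12 h, 90, 77.7 and 70.8 CPM at 18 h, and 59.8, 60.8 and 61.8 CPM at 24 h. In order of mean level the times ran 12 h, 18 h, 0 h, 24 h and 6 h, and the libraries of 18 h did not overlap those of 0 h, nor those of 24 h those of 6 h. From 6 h to 12 h Nfkb1 rose by a log2 fold change of 0.62 ± 0.134 (edgeR adjusted p = 0.003). Rel stood at 31.8, 30.9 and 27.4 CPM at 0 h, 35, 38 and 34.3 CPM at 6 h, 26.3, 22 and 27.5 CPM at 12 h, 35.2, 33 and 29 CPM at 18 h, and 25.3, 26.4 and 20 CPM at 24 h. From 6 h to 12 h Rel fell, with a log2 fold change of -0.50 ± 0.136 (edgeR adjusted p = 0.0158), and all 12 h libraries were below all 6 h libraries. These were the 2 of 10 members called between 6 h and 12 h, where 10.9% of all genes were.

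The rise of Nfkb1 between 6 h and 12 h was called in all 12 alternative settings, with adjusted p from 8.35e-05 to 0.0338. The fall of Rel was not called with scaling by library size only (edgeR adjusted p = 0.084), in a fit of only the times compared (0.0698), or without 6 h library 2 (0.076) or 12 h library 2 (0.0975). Against 0 h, Nfkb1 at 12 h had a log2 fold change of 0.39 ± 0.136 with an adjusted p of 0.0574, and was called without 12 h library 2 (0.0116). From 12 h to 24 h it had -0.48 ± 0.132 and an adjusted p of 0.192, and was called without 12 h library 2 (0.035).

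Nfkbia stood at 51.9, 57.8 and 60.5 CPM at 0 h, 64.9, 59.4 and 56.1 CPM at 6 h, 66.1, 61 and 70.5 CPM at 12 h, 75, 83.3 and 71.1 CPM at 18 h, and 63.5, 67.2 and 56.9 CPM at 24 h. The 18 h libraries were above the libraries of each other time. Against 0 h Nfkbia rose at 18 h by a log2 fold change of 0.42 ± 0.116 (edgeR adjusted p = 0.0224), the 1 of 10 members called there, where 8.82% of genes were. The call was lost without 0 h library 1 (0.0961) or 2 (0.0688) and without 18 h library 1 (0.0684) or 2 (0.0998), with log2 fold changes from 0.36 to 0.56 over all alternatives.

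Nfkbie stood at 5.86, 4.82 and 7.79 CPM at 0 h, 9.06, 6.75 and 8.46 CPM at 6 h, 8.57, 8.72 and 9.22 CPM at 12 h, 8.64, 8.38 and 7.13 CPM at 18 h, and 10.9, 12.2 and 8.28 CPM at 24 h. Every 24 h library was above every 0 h library. At 24 h Nfkbie was higher than at 0 h by a log2 fold change of 0.74 ± 0.243 (edgeR adjusted p = 0.0336), the 1 of 10 members called at 24 h, where 18.7% of genes were. That call was lost without 0 h library 1 (0.0847) or 2 (0.161) and without 24 h library 1 (0.0872) or 2 (0.136).

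Nfkbib at 24 h, at 23.5, 26.1 and 28 CPM against 20.1, 17 and 22 CPM at 0 h, did not overlap either, and its log2 fold change of 0.38 ± 0.165 had an adjusted p of 0.106 in edgeR. Its 24 h libraries were also above those of 6 h, at 21, 21.6 and 22.9 CPM, and of 18 h, at 20.4, 17.5 and 15.5 CPM. At 12 h 1 library of Nfkbib, at 23.4 CPM, fell just under the lowest 24 h library. Rela stood at 32.2, 34 and 40.7 CPM at 0 h and at 47.2, 40.6 and 43.9 CPM at 24 h, with a log2 fold change of 0.28 ± 0.127 (edgeR adjusted p = 0.117). Scaling by library size only called Rela (0.47, adjusted p = 0.0246) and Nfkbib (0.56, adjusted p = 0.0221) at 24 h, a setting that moved the median of all genes by 0.17 there.

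At 6 h against 0 h no member was called by edgeR or DESeq2 (which called 1 gene in all), 0 had an unadjusted p under 0.05, and 0% of all genes were called by edgeR, with 734 genes at an unadjusted p under 0.05. At 12 h against 0 h 0 of 10 members were called, where 12% of genes were, with 1 member, Nfkb1, at an unadjusted p under 0.05 and 0 called by DESeq2. At 24 h against 12 h 0 of 10 were called, where 0.191% of genes were, with Nfkb1 and Nfkbib at an unadjusted p under 0.05 and 0 called by DESeq2. The other members stayed within ranges over the 15 libraries of 32.2 to 47.2 CPM for Rela, 3.21 to 6.58 for Nfkb2, 0.82 to 2.43 for Relb, 6.16 to 13.8 for Nfkbiz and 1.57 to 6.76 for Tnfaip3, and none was called at any time with TMM scaling.

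**Figure D5:**
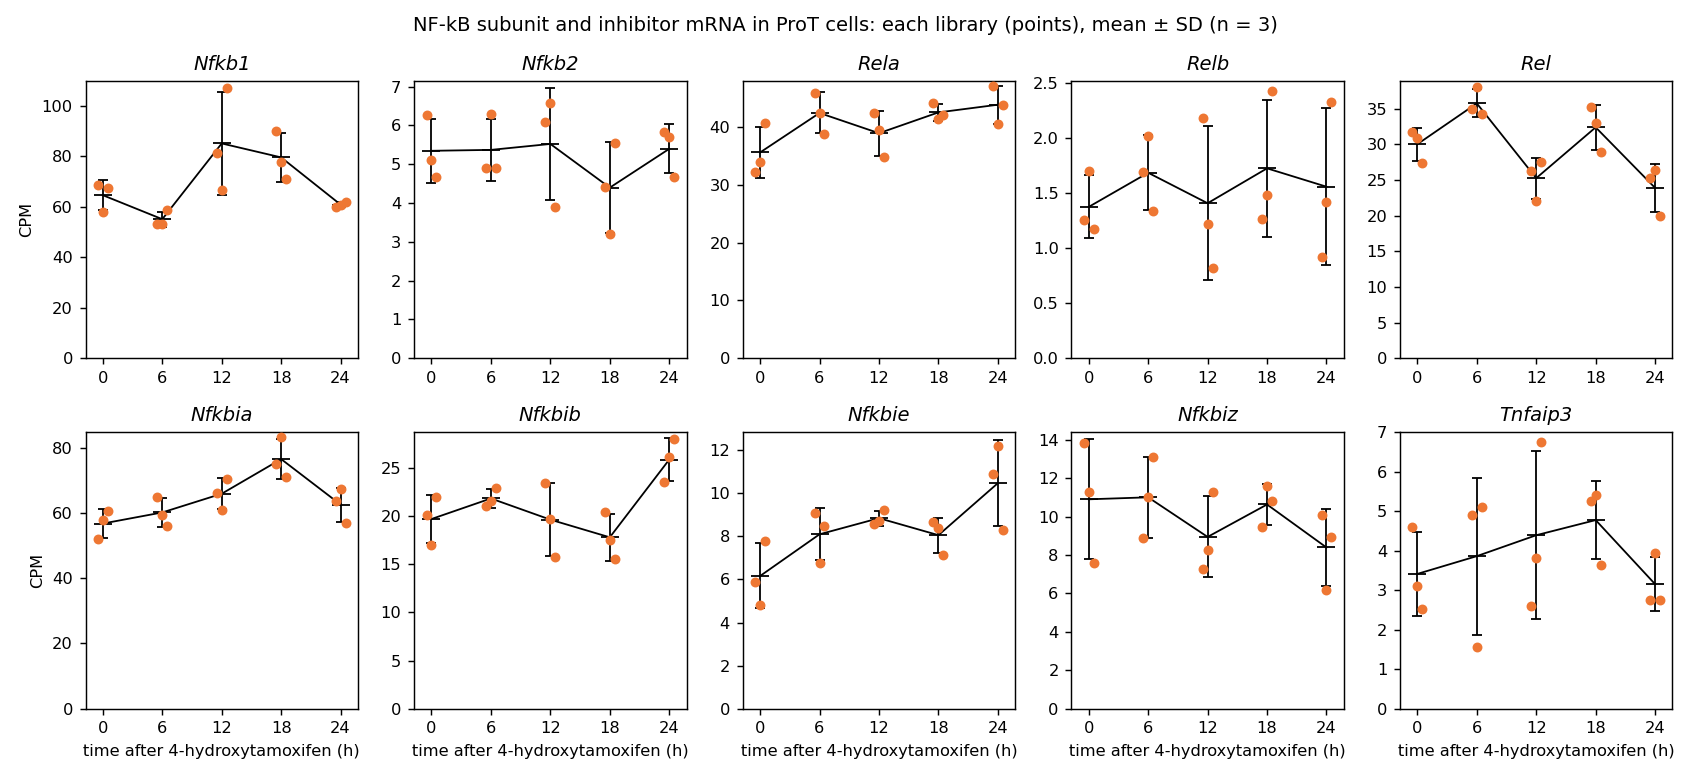
Level of each of the 10 genes in ProT cells by hours of 4-hydroxytamoxifen, in CPM on linear axes from 0, with a point per library and a line through the means ± SD of 3. Nfkb1 is lowest at 6 h (53.3 to 58.5 CPM) and highest at 12 h (66.7 to 107 CPM), while Rel is highest at 6 h (34.3 to 38 CPM).

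The other pathway genes gave a mixed picture in ProT cells. Of 68 tested, 9 were called at 12 h against 0 h, 3 higher and 6 lower, which is 13.2% where 12% of all genes were called. Those higher were Tax1bp1 (a partner of A20, 0.37 ± 0.112), Psmb9 (an immunoproteasome subunit, 0.33 ± 0.11) and Ccr7 (0.97 ± 0.292). Those lower were Nlrc3 (-1.23 ± 0.141), Nfkbid (-0.65 ± 0.2), Cd28 (the costimulatory receptor, -0.63 ± 0.155), Itch (-0.43 ± 0.139), and the chemokine genes Ccl4 (-1.84 ± 0.452) and Ccl5 (-0.37 ± 0.123). The median log2 fold change of the 68 was -0.05, against -0.01 for all genes. All values in this paragraph are log2 fold changes with their SE against 0 h.

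At 24 h against 0 h 11 of 68 were called, 4 higher and 7 lower, which is 16.2% where 18.7% of all genes were called. Tax1bp1 (0.47 ± 0.113), Psmb9 (0.42 ± 0.11), Pdlim2 (0.42 ± 0.135) and Ccr7 (0.96 ± 0.294) were higher. Nlrc3 (-0.94 ± 0.139), Cd28 (-0.93 ± 0.158), Birc2 (-0.60 ± 0.14), Il18r1 (-1.02 ± 0.283), Ccl4 (-1.41 ± 0.434), Itch (-0.48 ± 0.139) and Rc3h1 (-0.37 ± 0.119) were lower. At 18 h 5 were called, 2 higher (Tax1bp1, Ccr7) and 3 lower (Nlrc3, Nfkbid, Birc2), which is 7.35% where 8.82% of all genes were called.

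At 6 h against 0 h 0 of the 68 were called. Between 6 h and 12 h 9 were called, which is 13.2% where 10.9% of all genes were. These were Psmb9 higher (0.42 ± 0.107) and 8 lower: Nlrc3 (-1.24 ± 0.138), Cd28 (-0.83 ± 0.148), Il18r1 (-1.07 ± 0.252), Cd69 (-0.88 ± 0.229), Tnfsf8 (-0.82 ± 0.256), Ccl4 (-1.82 ± 0.437), Ccl5 (-0.41 ± 0.121) and Itch (-0.44 ± 0.135). Cd69 is an early activation antigen of lymphocytes and Il18r1 a receptor chain for interleukin 18. Mean Cd28 was 44.7 ± 3.69 CPM at 6 h and 25.3 ± 4.8 CPM at 12 h (SD, n = 3).

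Nlrc3 was lower both in TAL1 thymus and in ProT cells at 12, 18 and 24 h, and Nfkbid in TAL1 thymus and at 12 and 18 h. Ccr7 was lower in TAL1 thymus and higher in ProT cells at 12, 18 and 24 h. Relb and Nfkbiz, which fell in TAL1 thymus, had log2 fold changes of 0.09 ± 0.53 and -0.25 ± 0.255 in ProT cells at 12 h against 0 h. The thymus and ProT results were not tested against each other.

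The genes whose log2 CPM was most like that of Nfkb1 over the 15 ProT libraries were Wipf1 (Pearson r 0.936), Ndfip2 (0.913), Pgrmc1 (0.897), Spcs3 (0.871) and Bnip3l (0.868). Over the 6 mice labelled empty vector or TAL1, those most like Relb were Zbtb4 (0.996), Pea15a (0.996), Cr1l (0.995), Oas2 (0.992) and Tmem123 (0.991). These were picked as the highest of all genes tested and are given as descriptions. The 6 mice fall into 2 groups that do not overlap in Relb.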

How the data were processed

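Counts per gene were used as deposited, whole numbers that the authors did not normalise. The submitters' processing notes name HISAT2, HTSeq, SAMtools and FastQC with the builds GRCm38 and mm10. Strandedness of the counting, tool versions and annotation release are not given in the sources used here. The 5 HTSeq summary lines were left out of 2 tables. Reads in no feature came to 17.3% to 33% and ambiguous reads to 3.33% to 6.09% of these libraries. Per table, 27 symbols damaged into dates were restored from identifiers.

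Members were tested on the whole table with edgeR 4.0.16 in R 4.3.3 (TMM scaling, filterByExpr, quasi-likelihood F test, Benjamini-Hochberg adjustment over all genes, threshold 0.05). Thymus comparisons used their own table. ProT libraries shared 1 fit, and the difference between the TAL1 effects was fitted over 12 mice. CPM are TMM-scaled, lengths and positions come from GENCODE M21 on GRCm38, and intervals are 1.96 SE. Alternatives were DESeq2 1.42.0, RLE factors, library size only, no filter, a replicate block, only the times compared, and each library left out. The members, pathway lists and marker lists were chosen with earlier results of these data known. Named were all members, pathway genes past the threshold (up to 6 per list and direction) and the 5 genes most like 2 members. One pathway gene is not reported here and is left out of the list counts. The replicates of a group differed by more than sampling noise.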

Additional observations from a re-analysis of the deposited data

Results flagged for a closer look

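Between 6 h and 12 h in ProT cells, Nfkb1 and Rel differed by a direct test of one time against the other, while neither comparison with 0 h at these times passed. The log2 fold change from 6 h to 12 h was 0.62 ± 0.134 for Nfkb1 (edgeR adjusted p = 0.003) and -0.5 ± 0.136 for Rel (edgeR adjusted p = 0.0158). All 3 libraries of 12 h were above all 3 of 6 h for Nfkb1, and below them for Rel. The share of all genes without overlap was not counted. These 2 of 10 members were called where 10.9% of all genes were. The call of Nfkb1 held in 12 of 12 alternative settings and that of Rel in 8 of 12.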

How the results depend on the processing

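The 9 results in which a member was called gave 118 alternative values, of which 89 kept the call, 29 lost it and 0 turned direction. The 89 uncalled results gave 1136, of which 12 passed the threshold and 46 turned direction, all of them uncalled. The number of members called in TAL1 against empty vector was 3, and 0 to 1 without 1 mouse. At 12 h against 0 h it was 0, and 1 (Nfkb1) with library size only, with no filter on low counts and with the replicate block, and 0 to 1 without 1 library. At 18 h it was 1, and 0 to 1 without 1 library. At 24 h it was 1, 3 with library size only (adding Rela and Nfkbib) and 0 to 1 without 1 library. Over all times it was 2, and 2 to 4 without 1 library, 4 being without 12 h library 1. From 6 h to 12 h it was 2, 1 with library size only or only the times compared, and 1 to 2 without 1 library. From 12 h to 24 h it was 0, 1 with no filter, and 0 to 1 without 1 library. The cause was not tested.

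With the replicate block the count at 12 h against 0 h was 1 in place of 0, with adjusted p 0.0482 for Nfkb1, and no other count of members changed. The numbers were not taken as pairs: 30 same-numbered pairs had correlations of -0.143 to 0.213, 1 over 0.1, and 4 of 15 libraries correlated best with their own number.

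Log2 fold changes that turned direction, none of them called, were, with library size only, -0.01 for Nfkb2 in TAL1 against empty vector, and 0.10 for Nfkb1 and 0.16 for Tnfaip3 at 24 h against 0 h. Leaving out 1 library at a time gave ranges that crossed 0. In TAL1 against empty vector they were -0.19 to 0.19 for Nfkb2. In AKT(E17K) with TAL1 against AKT(E17K) they were -0.48 to 0.55 for Rel, -0.08 to 0.49 for Nfkbia, -0.10 to 0.19 for Nfkbib, -0.70 to 0.19 for Nfkbie and -0.10 to 0.55 for Nfkbiz. In ProT cells, 6 h against 0 h they were -0.09 to 0.14 for Nfkb2 and -0.19 to 0.24 for Nfkbiz. In ProT cells, 12 h against 0 h they were -0.04 to 0.28 for Nfkb2, -0.38 to 0.32 for Relb and -0.01 to 0.68 for Tnfaip3, and Nfkbib, at 0, ran from -0.15 to 0.13. In ProT cells, 18 h against 0 h they were -0.23 to 0.20 for Nfkbiz. In ProT cells, 24 h against 0 h they were -0.05 to 0.16 for Nfkb2, -0.22 to 0.43 for Relb and -0.24 to 0.19 for Tnfaip3. In ProT cells, 12 h against 6 h they were -0.07 to 0.25 for Nfkb2, -0.68 to 0.02 for Relb and -0.29 to 0.39 for Tnfaip3. In ProT cells, 24 h against 12 h they were -0.22 to 0.09 for Nfkb2, -0.31 to 0.52 for Relb, -0.16 to 0.04 for Rel and -0.25 to 0.12 for Nfkbiz. In the difference of TAL1 effects they were -0.19 to 1.30 for Relb, -0.17 to 0.11 for Nfkbib and -0.81 to 0.10 for Nfkbie.

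Scaling by library size only moved the median log2 fold change of all genes to 0.1, 0.18, 0.13 and 0.17 at 6, 12, 18 and 24 h, respectively. The share of called genes that were higher went from 52.7% to 85.8% (12 h), from 55.5% to 82% (18 h), from 50.3% to 80.5% (24 h) and from 51% to 70.2% (6 h to 12 h). Counts of all genes called also moved: TAL1 against empty vector 623, 1107 with no filter and 337 to 661 without 1 mouse; AKT(E17K) with TAL1 against AKT(E17K) 0, 76 with DESeq2, 30 with no filter and 0 to 8 without 1 mouse. With only the times compared, 18 h against 0 h had 2244 in place of 1200, and 6 h to 12 h 573 in place of 1477. From 12 h to 24 h 26 genes became 22 higher and 99 lower with no filter, and 10 to 213 without 1 library. The difference of TAL1 effects had 18, 175 with DESeq2, 58 with no filter and 2 to 173 without 1 mouse. Without 1 library the counts against 0 h were 819 to 1521 at 12 h (main 1635), 419 to 1006 at 18 h and 1447 to 2281 at 24 h (main 2549), and 657 to 2434 from 6 h to 12 h. Relb and Tnfaip3 had too few counts to be tested in AKT(E17K) mice.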
